A study of Rattus norvegicus with 19 samples.

Results

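The genes described here encode collagens, laminins, fibulins, small leucine-rich proteoglycans, other matrix glycoproteins, matrix-cleaving proteases and their inhibitors, together with Ptgds and Slc6a13, which are known from the membranes that wrap the brain. They were taken by their gene symbols on the array, and this choice was made with earlier results of these data known. A probe set entered when its single symbol began with Col, Lama, Lamb, Lamc, Fbln, Adamts, Timp or Mmp and a number, or was Dcn, Lum, Ogn, Bgn, Fmod, Fn1, Sparc, Lox, Mgp, Ptgds or Slc6a13. This gave 98 genes on 139 probe sets, of 14217 genes and 31042 probe sets in all, and each gene was read from the brightest of its probe sets by mean signal.

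The SON (supraoptic) and PVN (paraventricular) nuclei of the hypothalamus were compared on whole-genome Affymetrix rat arrays in the spontaneously hypertensive rat (SHR), an inbred strain that becomes hypertensive, and in the normotensive Wistar Kyoto (WKY) rat. The 4 groups were SHR SON with 4 arrays, WKY SON with 5, SHR PVN with 5 and WKY PVN with 5. All rats were untreated and aged 12 weeks by the labels, and male by the study's methods. The nuclei were cut out of fresh hypothalamic sections with a dissecting microscope and pooled, and since the sources do not tie an array to named animals, p-values measure the spread between these arrays. SHR is 1 inbred strain and WKY is 1 comparator, so a difference between them is one between 2 strains and not between high and normal pressure alone.

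Fibrillar collagens form the tensile fibres of connective tissue, and small leucine-rich proteoglycans such as decorin and lumican sit on those fibres and govern their width. Type IV collagens and laminins build the basement membranes of vessels and of the brain surface. Most brain tissue holds little fibrillar collagen, which is found chiefly in the leptomeninges, the thin membranes on the surface of the brain, and around larger vessels. The SON lies at the ventral surface of the brain beside the optic chiasm, whereas the PVN lies deep beside the ventricle of the midline.

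Signals are given as log2 of the deposited signal, scaled so that all arrays share 1 median and raised to a floor of 1.91 (a signal of 3.77) where lower. Each array correlated with its own group at a mean Pearson r of 0.954 to 0.980 over the probe sets tested. Of 8 genes that mark the 2 nuclei 7 were tested. In SHR 1 was called higher in the SON and 3 lower, and in WKY 2 were called higher and 3 lower. Crh, the corticotropin-releasing hormone of the PVN, differed by -4.66 between SON and PVN in SHR and by -4.06 in WKY. Avp and Oxt, the hormones of the magnocellular neurons of both nuclei, were not called between the nuclei. Testing was limited to probe sets for which 1 or more group means in a fit reached the overall median signal, and a call means that limma's adjusted p was under 0.05.

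Many matrix genes were higher in the SON than in the PVN of both strains. Of the 98 genes, 64 passed the filter on low signals, and a gene could pass through the SON alone. In SHR 39 of the 64 were called higher in the SON and 6 lower, beside 13.7% of all 17094 tested probe sets called higher and 15.7% called lower. In WKY 37 were called higher and 5 lower, beside 13.2% higher and 13.7% lower. At 2-fold or more, 24 were higher and 2 lower in SHR, against 2.89% and 2.76% of all probe sets, and 21 were higher and 2 lower in WKY, against 2.35% and 2.57%. In RNA from whole dissected nuclei, more cells of a type and more RNA in each cell cannot be told apart.

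With no filter all 98 genes could be tested, and 41 were called higher and 5 lower in SHR, beside 7.52% and 8.34% of all probe sets. In WKY 36 were called higher and 4 lower without the filter, beside 7.23% in each direction. The median SON minus PVN difference of the 98 genes was then 0.49 in SHR and 0.39 in WKY. Every SON array lay above every PVN array for 32 of the 98 genes in SHR, where 6.86% of all probe sets did so, and for 35 in WKY, where 6.78% did. Every SON array lay below for 4 genes in SHR and 5 in WKY, against 8.03% and 6.81% of all probe sets. The 2 strains were compared with separate arrays, and 34 of the 64 tested genes were called higher in the SON of both, with 4 called lower in both. Those 4 were Col11a1, Col9a3, Col25a1 and Mmp17.

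The 5 small leucine-rich proteoglycans were all called higher in the SON of both strains, with a median difference of 3.60 in SHR and 3.17 in WKY. Lum, lumican, read 9.07, 8.35, 8.82 and 7.91 on the SHR SON arrays and 4.66, 4.54, 4.86, 4.14 and 4.54 on the SHR PVN arrays. It read 7.74, 7.59, 7.06, 7.79 and 7.52 on the WKY SON arrays and 4.70, 3.78, 4.31, 4.64 and 4.44 on the WKY PVN arrays. No SON array came within 2 log2 units of a PVN array, and the differences were 3.99 (standard error 0.22, adjusted p = 3.08e-11) in SHR and 3.17 (standard error 0.21, adjusted p = 4.18e-10) in WKY. Ogn, osteoglycin, averaged 9.71 ± 0.44 on SHR SON arrays and 5.68 ± 0.12 on SHR PVN arrays (SD, n = 4 and 5), and 8.98 ± 0.29 on WKY SON arrays and 5.61 ± 0.27 on WKY PVN arrays (n = 5 each). Its differences were 4.03 in SHR and 3.37 in WKY (standard errors 0.18 and 0.17, adjusted p = 1.76e-12 and 1.14e-11). Fmod, fibromodulin, differed by 3.60 in SHR and 3.37 in WKY (standard errors 0.27 and 0.26, adjusted p = 3.44e-09 and 4.57e-09). Dcn, decorin, differed by 3.00 and 2.35 (standard errors 0.24 and 0.23, adjusted p = 8.70e-09 and 1.52e-07), and Bgn, biglycan, by 2.33 and 2.02 (standard errors 0.16 and 0.15, adjusted p = 5.79e-10 and 2.39e-09).

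The fibrillar collagens divided. Col1a2, the second chain of type I collagen, read 10.03, 8.73, 9.54 and 8.05 on the SHR SON arrays and 4.61, 4.07, 4.35, 4.64 and 4.89 on the SHR PVN arrays, a difference of 4.58 and the largest of the tested genes in SHR. On the WKY arrays it read 8.85, 8.81, 7.94, 8.47 and 8.83 in the SON and 4.70, 4.96, 4.56, 4.94 and 4.62 in the PVN, a difference of 3.82 (standard errors 0.29 and 0.27, adjusted p = 2.08e-10 and 1.36e-09). The 4 SHR SON arrays spanned a wider range than the 5 WKY SON arrays, yet all lay above every PVN array. A second probe set of Col1a2 gave smaller differences, 3.12 in SHR and 2.90 in WKY, both called. Col3a1 and Col1a1, named after their values were seen, differed by 3.31 and 1.96 in SHR and by 3.03 and 1.60 in WKY. A second probe set of Col1a1 gave 4.05 in SHR and 3.79 in WKY, both called. Col5a2, a minor chain of these fibres, differed by 0.75 in SHR and 0.87 in WKY. Of 11 fibrillar collagen genes 7 were tested, and in each strain 5 were called higher in the SON and 1 lower.

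The gene called lower was Col11a1, a chain of the thin type XI fibres best known from cartilage. It read 5.56, 5.63, 5.50 and 5.94 on the SHR SON arrays and 6.44, 7.12, 7.07, 7.11 and 7.22 on the SHR PVN arrays, with no overlap. The WKY SON arrays read 5.32, 5.50, 5.41, 5.17 and 4.93 and the WKY PVN arrays 7.04, 6.45, 6.40, 6.82 and 7.12, again with no overlap. The difference was -1.34 in SHR and -1.50 in WKY (standard errors 0.17 and 0.16, adjusted p = 6.95e-06 and 7.99e-07), and a second probe set of the gene gave -2.20 and -2.70. The remaining probe set was near the floor and did not pass the filter.

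The promoters of 3 of the genes that differed most are shown because the genes were called higher in the SON together, although no measurement of binding or methylation was made here. RefSeq promoters (build GRCr8, 250 bases before to 50 after the start) matched 70 of the 98 genes, Col1a2, Lum and Ogn among them. Capitals mark the TATA box motif TATAAA and the CCAAT box motif CCAAT on either strand, where they read TTTATA and ATTGG on the reverse strand, and the GC box core GGGCGG was searched the same way and is in none of the 3 windows.
Col1a2, chr4:33518307-33518606, plus strand: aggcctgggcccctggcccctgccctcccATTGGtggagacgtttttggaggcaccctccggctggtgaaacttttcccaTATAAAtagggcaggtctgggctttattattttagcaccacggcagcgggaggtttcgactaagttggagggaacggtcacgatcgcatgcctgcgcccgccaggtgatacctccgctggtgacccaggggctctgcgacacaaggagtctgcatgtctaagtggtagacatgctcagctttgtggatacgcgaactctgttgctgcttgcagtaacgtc
Lum, chr7:34245456-34245755, plus strand: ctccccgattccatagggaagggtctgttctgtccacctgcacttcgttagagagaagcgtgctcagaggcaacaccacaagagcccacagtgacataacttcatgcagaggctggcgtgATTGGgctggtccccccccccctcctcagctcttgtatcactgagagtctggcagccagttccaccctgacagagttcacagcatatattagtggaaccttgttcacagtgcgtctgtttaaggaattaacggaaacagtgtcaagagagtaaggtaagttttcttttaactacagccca
Ogn, chr17:15258946-15259245, minus strand: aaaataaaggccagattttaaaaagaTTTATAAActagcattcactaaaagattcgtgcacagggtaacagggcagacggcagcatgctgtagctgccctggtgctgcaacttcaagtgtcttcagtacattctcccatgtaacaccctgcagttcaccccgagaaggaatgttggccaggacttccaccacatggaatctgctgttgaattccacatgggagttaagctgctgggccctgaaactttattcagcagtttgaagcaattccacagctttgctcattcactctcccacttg

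The Col1a2 window held CCAAT on the reverse strand at position -221 and TATAAA at -170, each read at its first letter with the base before the RefSeq start as -1. The Lum window held CCAAT on the reverse strand at -130. The Ogn window held TATAAA on both strands in overlapping letters at -224 and -222. Among the 34 genes called higher in the SON of both strains 23 had a promoter in the table, of which 4 (17.4%) held TATAAA, 7 (30.4%) held CCAAT and 13 (56.5%) held GGGCGG. The 73 promoters of the 70 matrix genes gave 20.5% for TATAAA, 31.5% for CCAAT and 53.4% for GGGCGG. Of all 33469 RefSeq promoters 14.2% held TATAAA, 37.5% held CCAAT and 33.1% held GGGCGG.

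Ptgds and Slc6a13 showed the same contrast between nuclei as the proteoglycans. Ptgds makes prostaglandin D2 and is known from the leptomeninges, the choroid plexus and oligodendrocytes. It read 12.59, 12.27, 12.59 and 12.23 on the SHR SON arrays and 8.68, 8.55, 8.58, 7.68 and 8.71 on the SHR PVN arrays. The WKY SON arrays read 12.35, 12.24, 12.27, 12.64 and 12.83 and the WKY PVN arrays 8.62, 9.16, 9.19, 8.58 and 8.52. The groups were far apart, with differences of 3.98 in SHR and 3.65 in WKY (standard errors 0.20 and 0.19, adjusted p = 7.15e-12 and 1.14e-11). Slc6a13, a transporter of GABA and taurine known from leptomeningeal cells, read 8.24, 6.68, 7.50 and 7.04 in the SHR SON and 3.06, 1.91, 4.29, 4.37 and 1.91 in the SHR PVN. On the WKY arrays it read 6.85, 7.18, 6.78, 7.12 and 7.32 in the SON and 3.15, 3.53, 1.91, 2.41 and 1.91 in the PVN. It differed by 4.26 in SHR and 4.47 in WKY (standard errors 0.47 and 0.44, adjusted p = 7.28e-07 and 1.81e-07), and because 2 PVN arrays of each strain lay at the floor these differences rest partly on the floor.

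**Figure D1:**
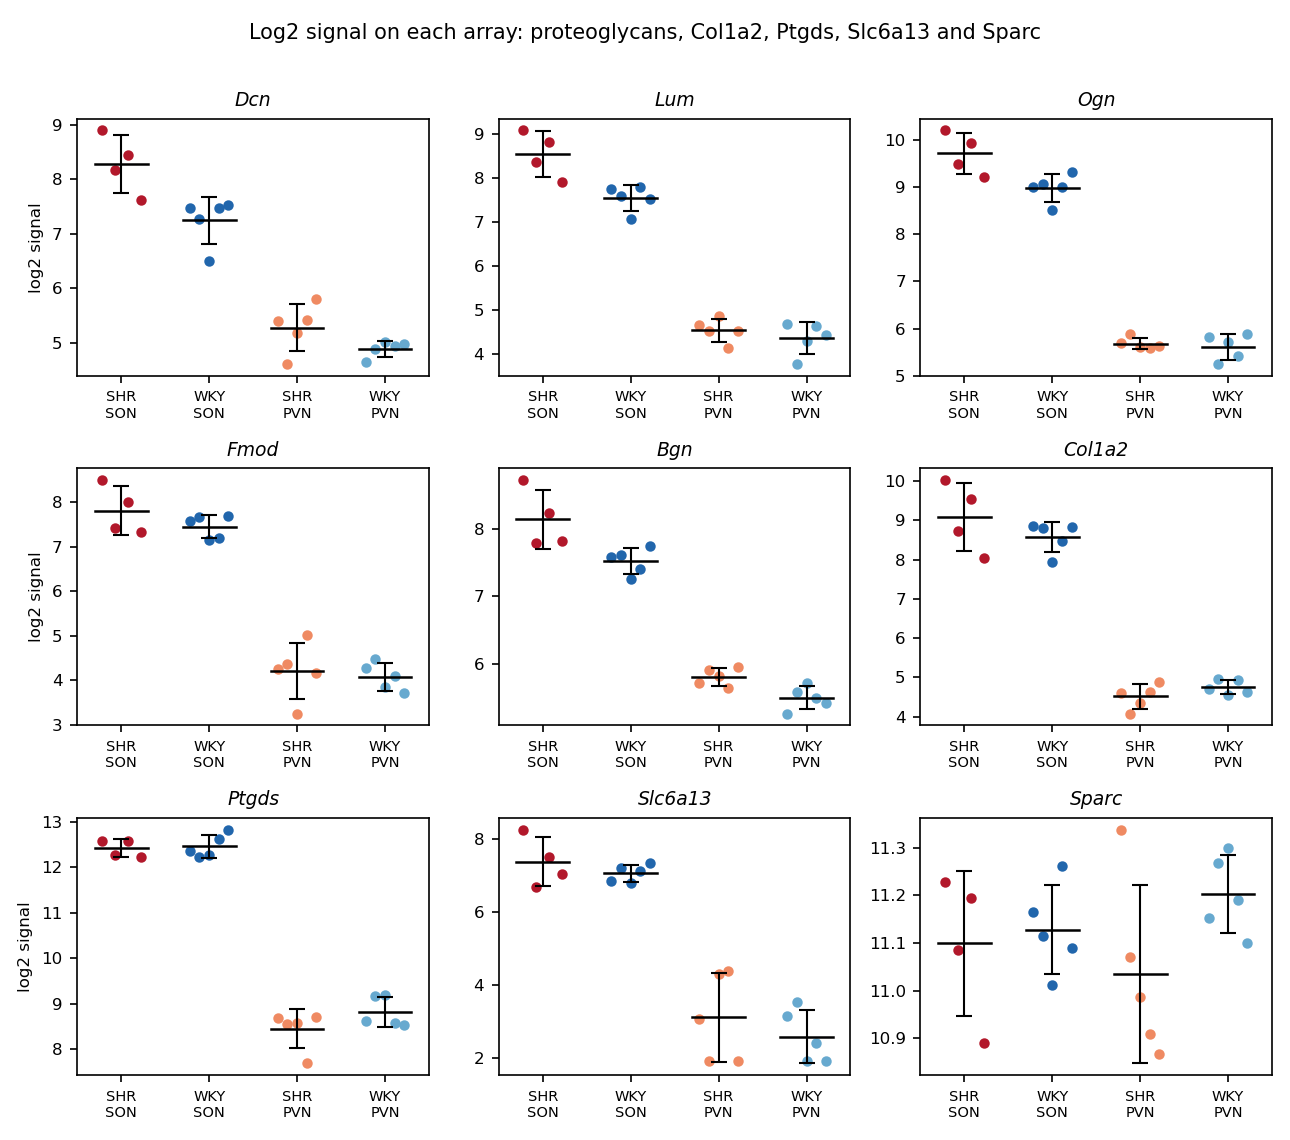
Log2 signal of 9 genes on each array, with 1 panel a gene, the groups SHR SON, WKY SON, SHR PVN and WKY PVN along the x axis and log2 signal on the y axis, which has its own range in each panel. Points are arrays, the bar is the mean and the whisker the SD (n = 4 for SHR SON, otherwise 5); in all panels but that of Sparc both SON groups lie above both PVN groups.

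The matrix glycoproteins showed both a large contrast and none. Mgp, matrix Gla protein, an inhibitor of calcification, averaged 9.46 ± 0.73 in the SHR SON and 7.30 ± 0.16 in the SHR PVN, a difference of 2.17, and 8.62 ± 0.39 in the WKY SON and 7.40 ± 0.13 in the WKY PVN, a difference of 1.22 (standard errors 0.24 and 0.23, adjusted p = 8.30e-07 and 3.92e-04). Fn1, fibronectin, differed by 1.65 in SHR and 0.86 in WKY (standard errors 0.20 and 0.18, adjusted p = 2.12e-06 and 0.0015). Lox, the enzyme that crosslinks collagen and elastin, differed by 1.09 in SHR and by 0.49 in WKY, where it was not called (adjusted p = 0.0883). Sparc, a collagen-binding glycoprotein, was not called in either strain. Its 19 arrays lay between 10.87 and 11.34, with a SON minus PVN difference of 0.07 in SHR and -0.07 in WKY. Under quantile normalization Sparc was called lower in the SHR SON, at -0.23 (adjusted p = 0.00718), and in the WKY SON, at -0.20 (adjusted p = 0.0122). Of the fibulins, which bind elastic fibres and basement membranes, Fbln1 differed by 2.30 and 1.87 in SHR and WKY, and Fbln2 by 0.29 (not called) and 0.65.

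Basement membrane genes were less uniform. Of 10 laminin genes 8 were tested, and 6 were called higher and 1 lower in the SHR SON, and by limma 5 were called higher and 0 lower in the WKY SON, the same counts as at an unadjusted p under 0.05. Lamb2, a chain of vessel and surface laminins, averaged 8.11 ± 0.69 in the SHR SON and 7.22 ± 0.21 in the SHR PVN, a difference of 0.89, and differed by 0.96 in WKY. Lama3, a chain best known from skin, was called lower in the SHR SON, at -0.53, and had a difference of -0.21 in WKY (not called). Of the type IV collagens Col4a1 and Col4a2, the main chains of vessel basement membranes, were not called in either strain, with differences from -0.01 to 0.17. Col4a5, a chain of specialised basement membranes, was called higher in the SHR SON, at 0.72, and had 0.35 in WKY (adjusted p = 0.127).

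Among 25 other collagens 15 were tested, with 10 called higher and 3 lower in the SHR SON and 8 higher and 2 lower in the WKY SON. Type VI collagen, a beaded filament network around cells, had 5 genes, of which Col6a5 and Col6a6 did not pass the filter and Col6a1, Col6a2 and Col6a3 were called higher in the SON of both strains, by 0.90, 1.95 and 1.81 in SHR and by 0.98, 3.06 and 1.63 in WKY. Col9a3, a chain of type IX collagen, read 6.20, 6.19, 6.26 and 6.20 in the SHR SON and 6.91, 7.04, 7.01, 6.83 and 6.89 in the SHR PVN, a difference of -0.72 without overlap. It differed by -0.40 in WKY (standard errors 0.11 and 0.10, adjusted p = 3.13e-05 and 0.00532). Col9a2, a chain of the same molecule, went the other way, at 1.00 and 0.54 in SHR and WKY. Col25a1, a membrane collagen made by neurons, differed by -0.80 in SHR and -0.43 in WKY, and the WKY call was lost in 8 of 21 alternatives. Col22a1 was called lower in SHR alone, at -0.70, and kept this call in 11 of 18 alternatives.

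**Figure D2:**
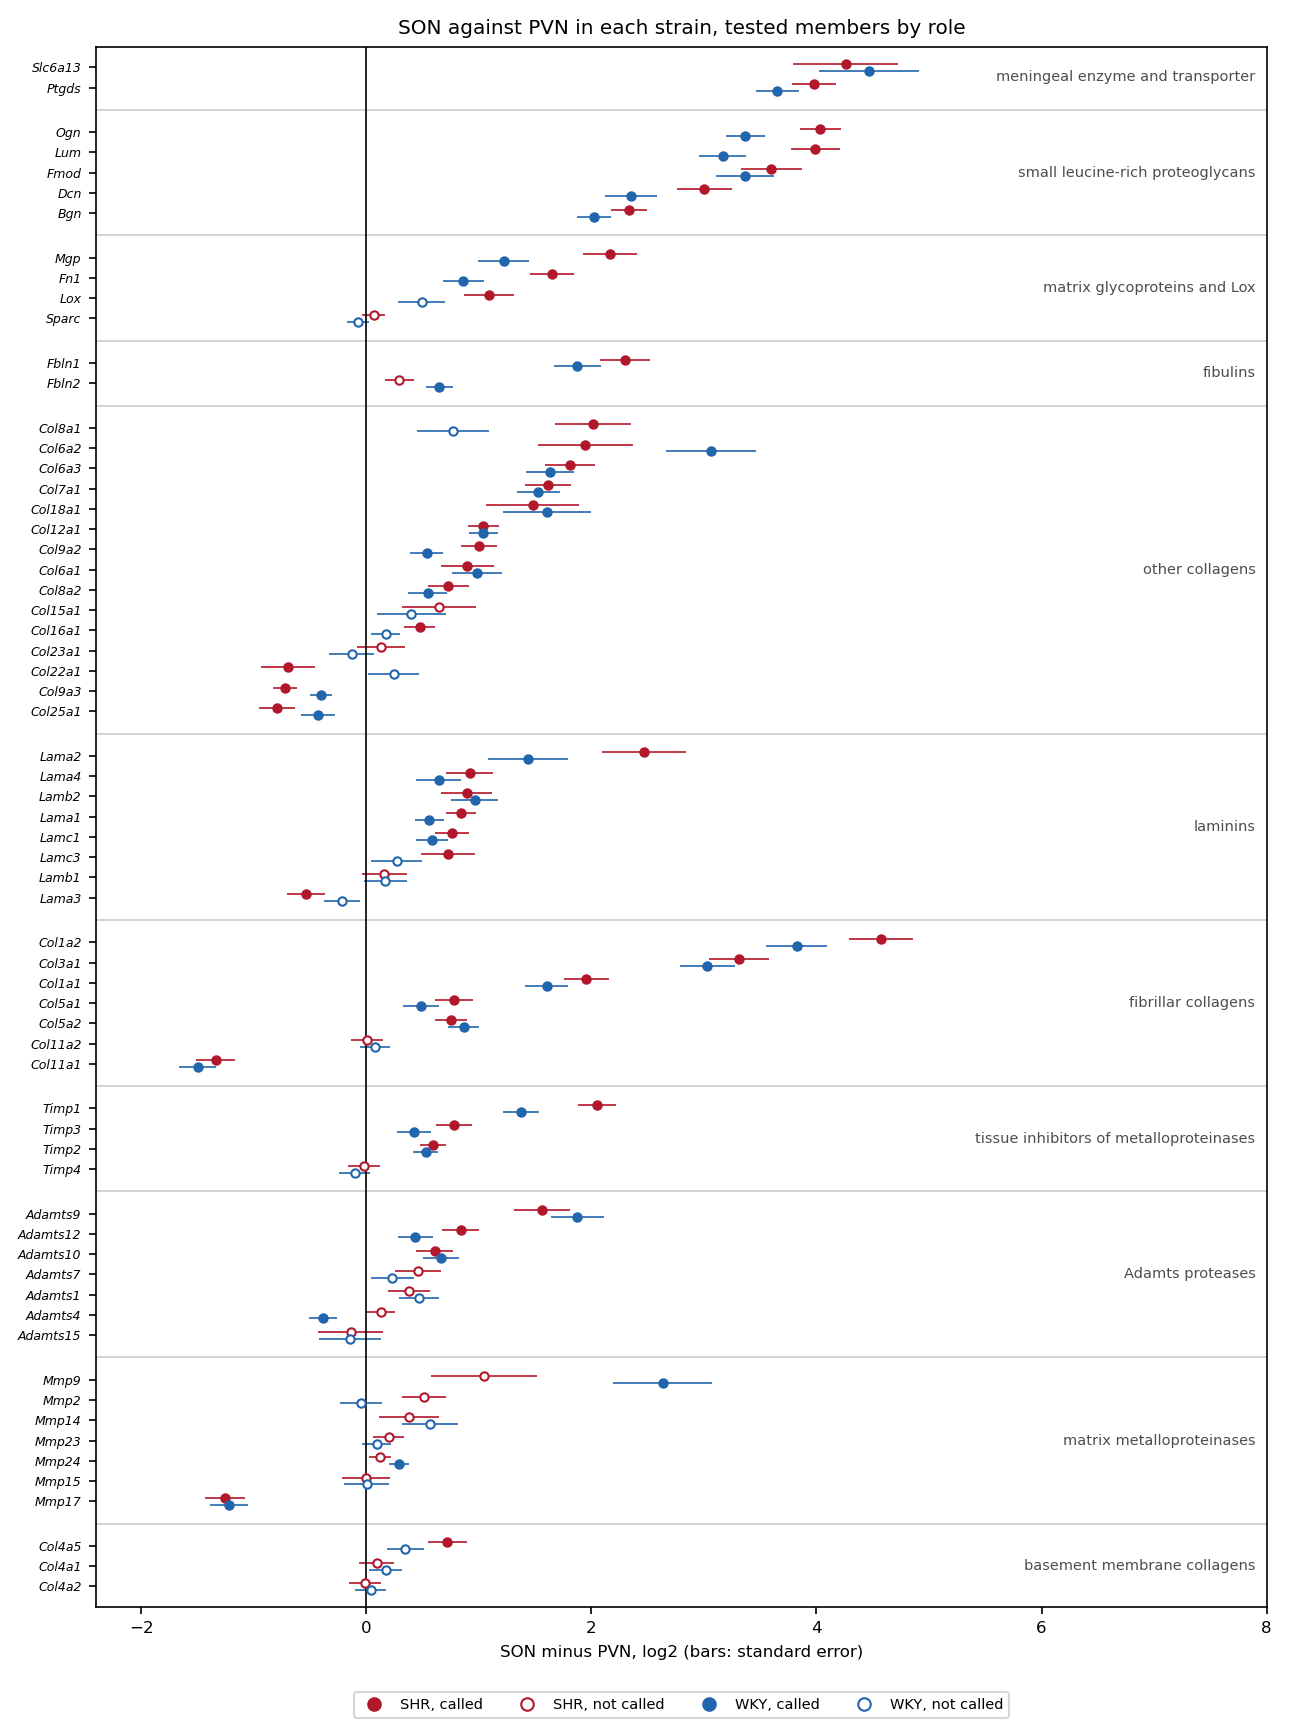
SON minus PVN difference on the log2 scale for each of the 64 tested genes, grouped by role, in SHR (red) and WKY (blue), with the standard error as a bar; filled points were called. The proteoglycans, Ptgds and Slc6a13 lie between 2.02 and 4.47, and Col11a1 and Mmp17 lie furthest to the left.

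Timp1, an inhibitor of matrix metalloproteinases, read 7.52, 7.24, 7.26 and 6.86 in the SHR SON and 5.35, 4.94, 5.01, 4.90 and 5.64 in the SHR PVN. It read 6.64, 6.23, 6.32, 6.68 and 6.64 in the WKY SON and 4.81, 5.16, 5.55, 5.02 and 5.12 in the WKY PVN. The nuclei did not overlap in either strain, and the differences were 2.05 in SHR and 1.37 in WKY (standard errors 0.17 and 0.16, adjusted p = 1.29e-08 and 1.94e-06). Of the 4 inhibitors of this family 3 were called higher in the SON of both strains. Timp2 differed by 0.59 and 0.53, though a second probe set of Timp2 was not called in either strain (-0.27 and 0.08). Timp3, which stays bound to the matrix, differed by 0.78 and 0.42, and Timp4 was not called. Of 17 matrix metalloproteinases 7 were tested. Mmp17, a membrane-anchored member of the family, read 6.10, 6.20, 5.82 and 5.63 in the SHR SON and 7.75, 7.38, 7.37, 6.65 and 6.83 in the SHR PVN. In WKY it lay between 5.58 and 6.09 in the SON and between 6.99 and 7.32 in the PVN. No SON array reached a PVN array of its strain, and the differences were -1.26 in SHR and -1.22 in WKY (standard errors 0.18 and 0.17, adjusted p = 1.91e-05 and 1.42e-05). Mmp24, a member made by neurons, differed by 0.12 (not called) in SHR and 0.29 in WKY. Its WKY call held in 16 of 21 alternatives, among which the difference fell to as little as 0.02. It was lost as the mean of its probe sets and in some fits that left out 1 array.

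The Adamts family, secreted proteases that cleave proteoglycans and process procollagen, had 12 genes, of which 7 were tested. In SHR 3 were called higher in the SON and 0 lower (unadjusted p under 0.05 for 4 higher and 0 lower), and in WKY 3 were called higher and 1 lower. Adamts9 was called higher in both strains, at 1.56 in SHR and 1.88 in WKY. Its second tested probe set had the opposite sign and was not called, at -0.24 in SHR and -0.31 in WKY. The gene called lower was Adamts4, an aggrecanase, at -0.38 in WKY (adjusted p = 0.0239, lost without WKY SON array 4 or WKY PVN array 3), while its difference in SHR was 0.13 (not called).

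**Figure D3:**
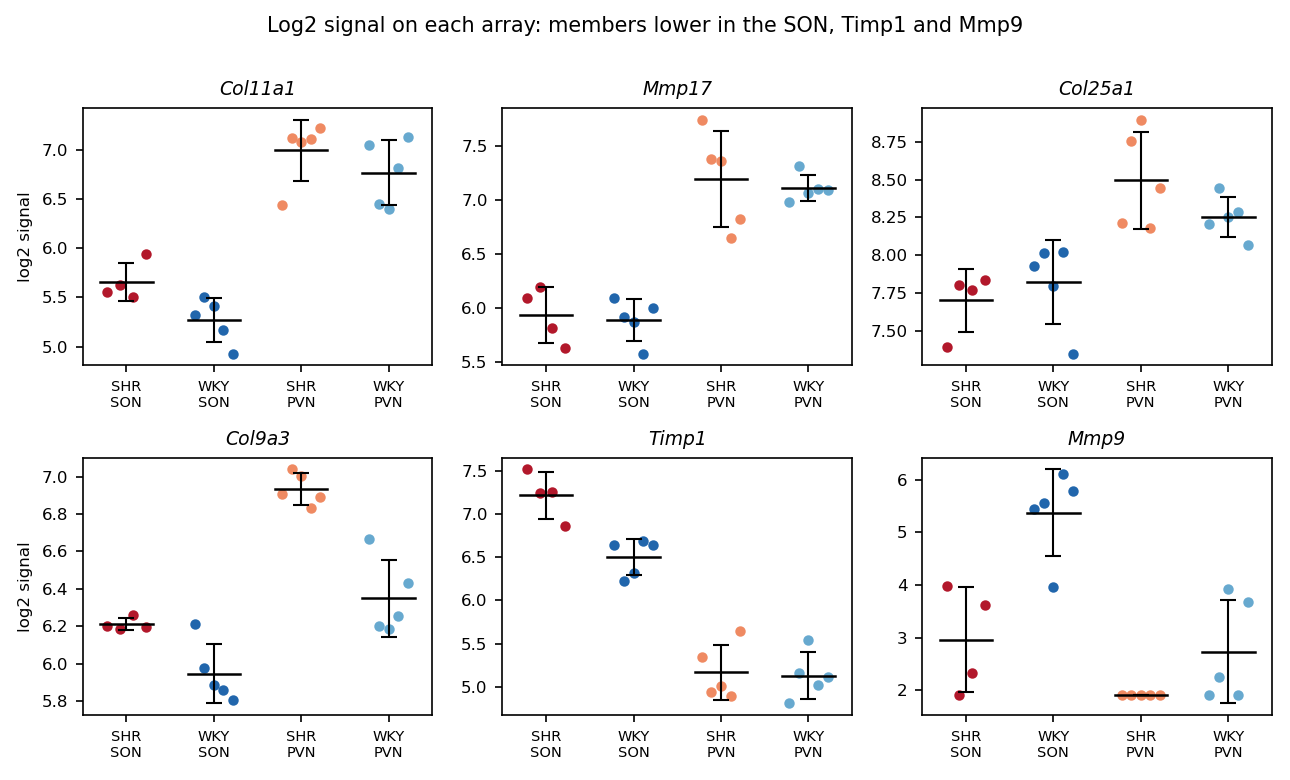
Log2 signal of Col11a1, Mmp17, Col25a1, Col9a3, Timp1 and Mmp9 on each array, with the 4 groups along the x axis, log2 signal on the y axis (its own range in each panel), points for arrays, a bar for the mean and a whisker for the SD. The first 4 have lower means in both SON groups than in both PVN groups, Timp1 lies higher, and Mmp9 lies at the floor of 1.91 on all SHR PVN arrays.

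Among the cell type lists, meningeal and fibroblast markers had the largest median differences between nuclei. Mural cell markers followed, at 0.77 in SHR and 0.40 in WKY. The counts in this and the next paragraph stand beside 13.7% of all tested probe sets called higher and 15.7% lower in SHR. In WKY these shares were 13.2% and 13.7%. Some lists of other cells also exceeded the share called higher, such as the astrocyte list, with 4 higher and 1 lower of 10 in each strain. Of 22 measured meningeal and fibroblast markers outside the 98 genes 18 were tested, and 16 were called higher in the SHR SON and 2 lower, with a median difference of 2.90. In WKY 15 were called higher and 2 lower, with a median of 2.12. Igfbp2 and Slc47a1 had the largest differences in SHR, 4.94 and 4.29, and Penk was lower, at -1.90. The summed signal of the 22 markers ranged from 4533 to 11173 on SHR SON arrays, from 4108 to 6014 on WKY SON arrays, from 1523 to 2551 on SHR PVN arrays and from 2093 to 2335 on WKY PVN arrays. Of these markers 2 were at the floor on every SHR PVN array, 1 on every WKY PVN array and 0 on every array of either SON group. The part of these cells in the matrix differences was not tested.

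Of 14 mural cell markers, genes of pericytes and smooth muscle, 11 were tested, and 9 were called higher in the SHR SON and 5 in the WKY SON, led by Tagln at 5.49 and 3.92. Of 12 endothelial markers SHR had 3 called higher and 1 lower and WKY 5 and 1, with medians of 0.27 and 0.28. Of 8 choroid plexus markers 4 were tested. Prlr and Aqp1 were called higher in the SHR SON, at 0.67 and 0.55, and had 0.57 and -0.03 in WKY (not called), Folr1 was called lower at -1.58 in SHR and -1.81 in WKY, and Ttr, transthyretin, was not called at 0.68 and 0.60. The astrocyte list, of 10 tested genes, had 4 called higher and 1 lower in each strain, with medians of 0.17 in SHR and 0.01 in WKY. The oligodendrocyte list of 10 had 4 called higher in SHR and 1 called lower in WKY, with medians of 0.36 and -0.02. The list of 8 microglia and macrophage genes had 2 called higher and 1 lower in SHR, against 1 and 2 in WKY, with medians of 0.24 and -0.09.

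The strain comparison in the PVN called few probe sets of any kind, and few of the matrix genes. Of the 39 that passed its filter 1 was called higher in SHR and 1 lower, beside 1.14% of all 16104 tested probe sets called higher and 1.21% lower, neither by 2-fold, which 0.31% and 0.317% of all probe sets reached. Of all 98 genes 1 had every SHR array above every WKY array and 2 had every SHR array below, against 1.37% and 1.69% of all probe sets. The median difference was 0.07, against -0.04 over all probe sets. Col9a3 read 6.91, 7.04, 7.01, 6.83 and 6.89 in the SHR PVN and 6.67, 6.20, 6.18, 6.25 and 6.43 in the WKY PVN. Every SHR array lay above every WKY array, and the difference was 0.59 (standard error 0.11, adjusted p = 0.00900), called in 20 of 21 alternatives. Fn1 read 7.23, 7.24, 7.20, 6.86 and 7.08 in the SHR PVN and 7.43, 7.61, 7.77, 7.64 and 7.49 in the WKY PVN. It was lower on every SHR array, at -0.47 (adjusted p = 0.0356), and this call held in 9 of 21 alternatives and in 2 of the 10 fits that left out 1 array, those without SHR or WKY PVN array 1. With no filter Col9a3 was the 1 gene called among all 98, beside 0.316% of all probe sets called higher and 0.464% lower.

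In the SON 3 matrix genes were called higher in SHR than in WKY and 1 lower, of 64 tested, beside 1.29% of all 16190 tested probe sets called higher and 2.34% lower. By 2-fold 1 was higher and 1 lower, beside 0.371% and 0.395%. Of all 98 genes 5 had every SHR array above every WKY array and 1 had every SHR array below, against 2.03% and 4.05% of all probe sets. With no filter 0 of the 98 were called by limma in either direction, beside 0.335% and 0.602% of all probe sets, and 20 of the 98 had an unadjusted p under 0.05. The methods' t-test, on the 64, also called 0, with 11 at an unadjusted p under 0.05. The median difference was 0.25, against -0.04 over all probe sets, and 46 of the 64 differences were above 0. The count of 4 calls rested on single arrays, with 2 calls without SHR SON array 1, 1 without SHR SON array 2, 0 without SHR SON array 3, 8 without SHR SON array 4 and 1 without WKY SON array 2, 4 or 5.

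Dcn read 8.90, 8.18, 8.45 and 7.62 in the SHR SON and 7.48, 7.27, 6.50, 7.47 and 7.52 in the WKY SON, so that each SHR array lay above each WKY array. The difference was 1.04 (standard error 0.26, adjusted p = 0.0482), and it was called in 8 of 20 alternatives and in 1 of the 9 fits that left out 1 array, the fit without SHR SON array 4. In the PVN Dcn was not tested. Lum, whose values on each array are given above, likewise showed no overlap, with a difference of 1.00 (adjusted p = 0.0292), called in 11 of 20 alternatives and lost without SHR SON array 1, 2 or 3 or WKY SON array 2, 4 or 5. Timp1 also showed no overlap between the strains, at 0.71 (adjusted p = 0.0197), called in 13 of 20 alternatives and lost without SHR SON array 1, 2 or 3 or WKY SON array 2. Across the alternatives the differences stayed between 0.83 and 1.26 for Dcn, between 0.82 and 1.21 for Lum and between 0.61 and 0.83 for Timp1.

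Adamts4 read 6.03, 6.46, 6.35 and 6.69 in the SHR SON and 6.01, 5.95, 5.84, 5.57 and 5.84 in the WKY SON. Every SHR array lay above every WKY array, and the difference of 0.54 was not called (adjusted p = 0.0541). It was called in 8 of 20 alternatives, among them the fit without SHR SON array 1, at 0.66 (adjusted p = 0.0238).

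Mmp9, the gelatinase B that cleaves type IV collagen, was the gene called lower. It read 3.98, 1.91, 2.33 and 3.62 in the SHR SON and 5.43, 5.56, 3.96, 6.10 and 5.79 in the WKY SON, a difference of -2.41 (adjusted p = 0.0154). The groups overlapped at SHR SON array 1 and WKY SON array 3, and 1 SHR SON array lay at the floor. With log2(value + 16) the difference was -1.31 and was called. The call was lost with no filter, in the methods' t-test and without SHR SON array 2 or 3. Mmp9 did not pass the filter, and so could not be called, without WKY SON array 4 or 5, with the stricter filter or as the mean of its probe sets. On the second probe set of Mmp9 the SHR SON averaged 2.35 and the WKY SON 4.16, and it did not pass the filter. In the PVN all 5 SHR arrays and 2 of 5 WKY arrays of the main probe set lay at the floor, and the SON minus PVN difference was 1.05 in SHR (adjusted p = 0.0993, called without SHR SON array 2) and 2.63 in WKY (adjusted p = 1.37e-04).

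Genes with the largest contrast between nuclei did not all differ between strains. Ptgds differed by -0.05 between SHR and WKY in the SON and Fmod by 0.36, and neither was called. Col1a2 differed by 0.51 (adjusted p = 0.445), with the SHR SON arrays both above and below the WKY SON arrays. Mgp read 10.24, 9.59, 9.55 and 8.48 in the SHR SON and 8.82, 8.42, 8.02, 8.88 and 8.96 in the WKY SON, with SHR SON array 4 among the WKY values. Mgp differed by 0.84 and Ogn by 0.73, and neither was called (adjusted p = 0.143 and 0.0712). Of the 5 proteoglycans 3, Dcn, Lum and Bgn, had every SHR SON array above every WKY SON array, and Bgn, at 8.72, 7.79, 8.23 and 7.81 in the SHR SON and 7.58, 7.61, 7.26, 7.40 and 7.74 in the WKY SON, with a difference of 0.62, was not called (adjusted p = 0.0854).

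**Figure D4:**
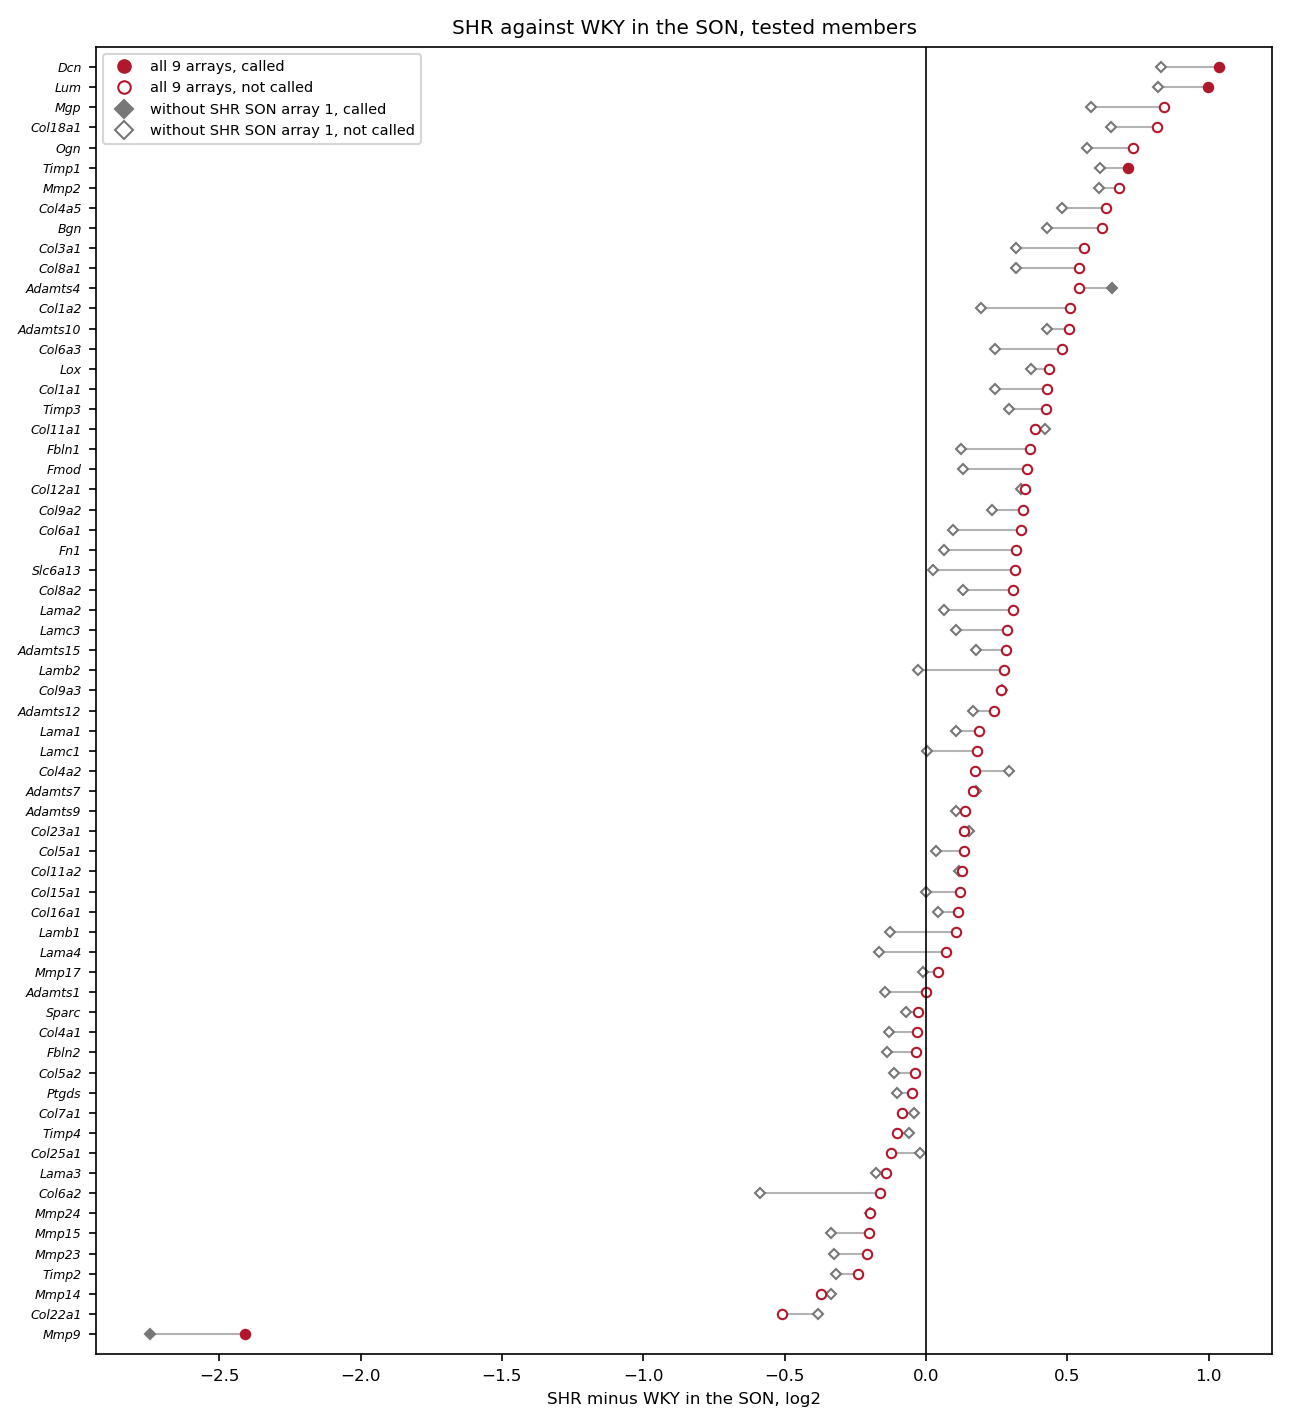
SHR minus WKY difference in the SON on the log2 scale for each of the 64 tested genes, from all 9 arrays (red circles) and without SHR SON array 1 (grey diamonds); filled symbols were called. Without that array most symbols move to lower values, and the calls of Dcn, Lum and Timp1 are lost, that of Mmp9 stays and Adamts4 becomes called, at 0.66.

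SHR SON array 1 carried the highest signal of its group for 44 of the 64 tested genes and SHR SON array 4 the lowest for 42. The mean over the 34 genes called higher in the SON of both strains was 8.11, 7.38, 7.76 and 7.12 on the SHR SON arrays and 7.31, 7.23, 6.95, 7.28 and 7.37 on the WKY SON arrays. WKY SON array 3 was the lowest of its group for 21 of these 34. On the PVN arrays the same mean lay between 5.63 and 5.71 in SHR and between 5.45 and 5.67 in WKY. The SHR SON arrays thus spread over about 1 log2 unit, and the group's lowest array lay below 4 of the 5 WKY SON arrays. Leaving out SHR SON array 1 brought the median strain difference of the tested genes to 0.11, and leaving out array 4 to 0.30.

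The meningeal and fibroblast markers outside the 98 genes ranked the SHR SON arrays in the same order. Their mean was 7.82, 7.04, 7.29 and 6.59 on the SHR SON arrays and 6.84, 6.90, 6.65, 6.61 and 6.94 on the WKY SON arrays. Of the 18 tested markers 2, Crabp2 and Aldh1a1, both of the retinoic acid pathway, were called higher in the SHR SON, at 1.04 and 1.64, and the median was 0.32. Aldh1a1 was also called higher in the SHR PVN, at 0.88. The order was not particular to the meningeal list. Array 1 was also highest and array 4 lowest of the SHR SON by the mean of the mural, endothelial, choroid plexus, astrocyte and microglia lists. For oligodendrocyte markers array 2 was highest and array 4 lowest, and for the nucleus markers array 4 was highest and array 1 lowest. The part of meningeal cells in the strain differences of the matrix genes was not tested.

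**Figure D5:**
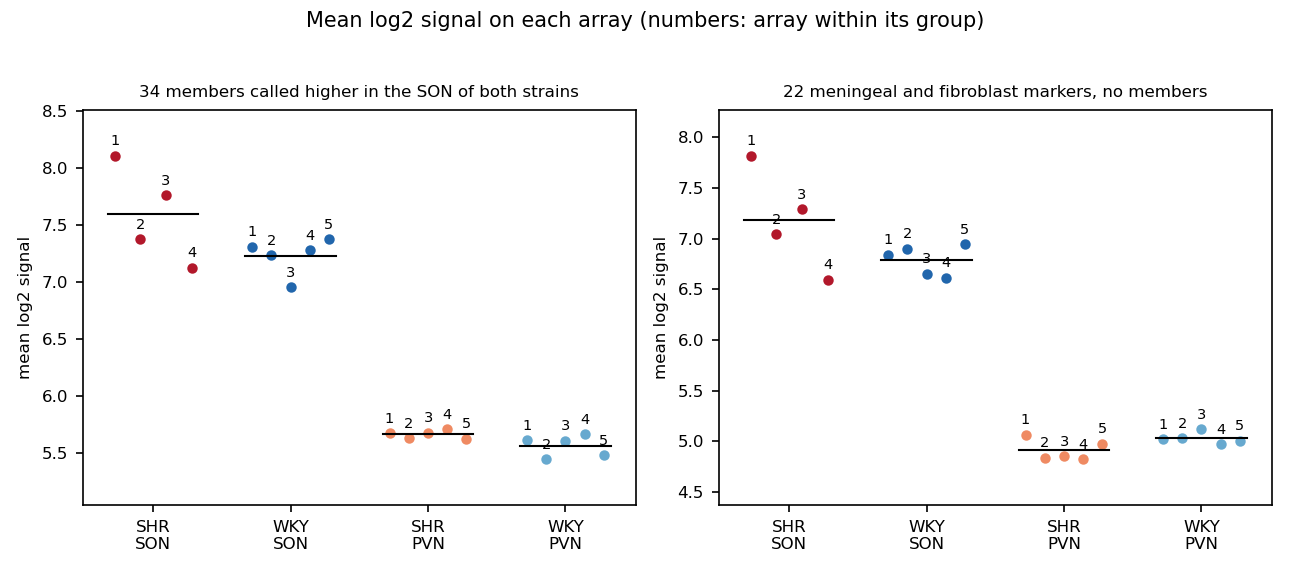
Mean log2 signal on each array over the 34 genes called higher in the SON of both strains (left) and over 22 meningeal and fibroblast markers that are not among the 98 genes (right), with the 4 groups on the x axis and numbers for the array within its group. The black line is the group mean; SHR SON array 1 is highest and array 4 lowest of their group in both panels, at 8.11 and 7.12 on the left.

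The strain difference itself was compared between nuclei in 1 fit of all 19 arrays, with the PVN value subtracted from the SON value. By limma 0 of the 64 tested genes were called, beside 0.0819% of all 17094 tested probe sets, and at an unadjusted p under 0.05 there were 8 with a positive and 3 with a negative value, and each alternative run also called 0. The median was 0.17, against -0.01 over all probe sets. The calls for Dcn, Lum, Timp1 and Mmp9 in the SON alone are therefore not shown to differ from the strain difference in the PVN. For Dcn the value was 0.65 (standard error 0.33, adjusted p = 0.764) and for Mmp9 -1.59 (adjusted p = 0.642).

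Partner genes outside the 98 followed the same contrast between nuclei in part. Of 20 measured partners of basement membranes and elastic fibres 16 were tested, and 11 were called higher in the SHR SON and 10 in the WKY SON. Nid1, which links laminin to type IV collagen, differed by 2.06 in SHR and 2.04 in WKY, and Ltbp2 by 3.08 and 2.66, whereas Hspg2, perlecan, was at 0.11 and -0.01 and was not called. Of 18 genes for processing and crosslinking of collagen 14 were tested, with 6 higher and 1 lower in SHR and 7 higher in WKY. Pcolce, the enhancer of procollagen C-proteinase, led them at 3.67 and 3.24, and it is also on the meningeal list.

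Of the brain's own matrix of lecticans, link proteins and tenascins 10 of 13 genes were tested, and SHR had 5 called higher and 2 lower, WKY 4 and 2. Tnc, tenascin C, differed by 1.78 and 2.10, and Hapln4, a link protein of nerve terminals, by -0.71 and -0.45. Among 15 tested matrix receptors, integrins and syndecans in the main, SHR had 4 called higher and 2 lower and WKY 4 and 1, led by Cd44 at 1.41 in SHR. The matricellular list of 10 tested genes had 3 higher and 3 lower in SHR and 2 higher and 4 lower in WKY, with Ccn2, connective tissue growth factor, at 2.38 and 1.68. Protease activators and other inhibitors had 3 higher and 1 lower of 8 in SHR and 2 higher and 1 lower in WKY, with the broad protease inhibitor A2m at 2.34 and 2.56.

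Between strains these partner lists held few calls. Serpinf1, an inhibitor of vessel growth, was called higher in the SHR SON, at 0.94, as were Ltbp1, at 0.94, and Plod2, a collagen lysyl hydroxylase, at 0.48. In the PVN Prelp, a proteoglycan related to Fmod, was called higher in SHR, at 1.30 (adjusted p = 3.83e-05), and its difference of 1.25 in the SON was not called (adjusted p = 0.184). In the PVN Prelp was the 1 gene tested on its list. Cst3, cystatin C, was called lower in the SHR PVN, at -0.51 (1 of 7), and Smoc2 higher, at 0.46 (1 of 9).

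The 34 genes that no fit tested had mean signals between 1.94 and 5.13, against 3.26 to 11.1 for the 64 tested, and 16 of them lay at the floor on 1 array or more. They held 10 of the 17 matrix metalloproteinases, 10 of the 25 other collagens, 5 of the 12 Adamts genes and 4 of the 11 fibrillar collagens, Col2a1 of cartilage among them. Where 2 or more probe sets of a gene were tested between nuclei, 13 of 15 genes had the same call on all of them in SHR and 10 of 15 in WKY. No gene had opposite calls, though signs could differ, as for Adamts9 and Timp2.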

How the data were processed

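RNA of dissected nuclei went through 1 round of linear amplification and was hybridised to whole-genome Affymetrix rat arrays. The authors deposited MAS 5.0 signals, an intensity for each probe set on a linear scale that has already been background-corrected and scaled by array; no probe-level files were used here. MAS 5.0 subtracts mismatch probes, which makes low signals noisy, and linear amplification favours 3' ends. The number of arrays limits the precision. Array labels gave the groups, and no label gave a scan or hybridisation batch, so none could be tested.

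Each array was scaled to a median signal of 41.3, signals below 3.77 (the 10th percentile) were raised to that floor, and log2 was taken. Of 31099 probe sets 57 controls were left out, 20826 had 1 gene symbol, 436 several and 9780 none in the platform annotation, and 20758 of the symbols were matched to RefSeq by gene ID. A probe set was tested where the mean of at least 1 group in the fit reached the median over probe sets. limma 3.58.1 in R 4.3.3 (lmFit, eBayes, two-sided, Benjamini-Hochberg adjustment over all probe sets tested, adjusted p under 0.05, 2-fold counted beside it) compared the strains within each nucleus, and the nuclei and the difference of differences in a fit of all 4 groups. The nucleus and strain comparisons share arrays. The statistics were tested on simulated data. Python 3.11.15 and matplotlib 3.10.9 drew the plots.

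The genes described and the lists of other genes were chosen with earlier results of these data known. Named were the genes the selection lists by symbol, up to 6 called genes in each direction with the largest differences per comparison and, per role, the gene with the highest mean; per list, up to 4 called genes with the largest differences. Col1a1, Col3a1, Col4a1, Col4a2, Col6a1, Col6a2, Col6a3, Col9a2, Fbln1, Col6a5, Col6a6, Timp3, Timp4, Col2a1, Adamts9, Hspg2, Ttr, Hapln4, Smoc2, Cst3, Penk, Avp and Oxt were named after their values were seen.

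Alternatives were quantile normalization, signals as deposited, no filter, a stricter filter, log2(value + 16), another set of arrays in the fit, the replicate number as a block, eBayes with trend and robust, arrayWeights, the methods' t-test (unequal variances), the mean of all probe sets of a gene, and each array left out in turn. No label ties the array numbers to animals, and same-numbered arrays were not treated as pairs.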

Additional observations from a re-analysis of the deposited data

Results flagged for a closer look

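In 8 of 108 groups of arrays, formed by 27 named genes in 4 groups, 1 array lay far from the others of its group. Chance alone would flag about 1 in 20 groups. The genes share arrays and are not independent, so nothing is drawn from the count of 8.

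WKY SON array 3 was low for 3 genes. Dcn read 6.50 there and 7.27 on the next array, Col5a2 read 7.16 with the next at 7.73, and Col4a5 read 7.05 with the next at 7.36. Without this array the Dcn strain difference in the SON was 0.85 and was not called (adjusted p = 0.0530 by limma).

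In the SHR SON Col25a1 read 7.39 on array 1, with the next at 7.77, and Lama3 read 4.91 on array 2, with the next at 5.46. In the SHR PVN Col11a1 read 6.44 on array 1, with the next at 7.07, which still lay above every SON array. On SHR PVN array 4 Col22a1 was high, at 6.31 with the next at 5.60, and Ptgds was low, at 7.68 with the next at 8.55.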

How the results depend on the processing

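The calls between nuclei for the 5 proteoglycans, Col1a2, Ptgds, Slc6a13 and Timp1 held in every alternative run that tested them, in both strains. Dcn, Lum, Fmod, Col1a2, Slc6a13 and Timp1 did not pass the stricter filter, and so could not be called there. In SHR the 45 called genes became 21 with the stricter filter, which tested fewer genes, and 28 with the methods' t-test, and lay between 42 and 47 with 1 array left out. In WKY the 42 became 20 with the stricter filter and lay between 36 and 42 with 1 array left out. Of the values for single named genes 1885 stayed called or stayed not called, 75 lost the call and 35 gained one. In 1 the sign changed with the call: Sparc between nuclei in SHR, at -0.23 under quantile normalization against 0.07. A change of sign between values that were not called was counted among the 1885. Sparc between strains in the PVN, at -0.17, thus reached 0.08 in an alternative.

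The strain calls were few and moved. In the PVN the 2 calls became 1 with no filter, 1 with all 4 groups in the fit, 5 with arrayWeights and 0 with the methods' t-test (7 at an unadjusted p under 0.05), and lay between 1 and 2 with 1 array left out. In the SON the 4 calls became 0 with no filter, 8 with all 4 groups in the fit, 10 with arrayWeights and 0 with the methods' t-test, and lay between 0 and 8 with 1 array left out. The cause was not tested. The difference of strain differences gave 0 calls by limma in each alternative, and 0 to 0 with 1 array left out.

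With the replicate block there was 1 call in the PVN and 1 in the SON between strains, 46 between nuclei in SHR, 43 in WKY and 0 for the difference of differences. The numbers were not taken to pair the arrays, since not every pair correlated above 0.1: same-numbered SHR and WKY arrays correlated between -0.226 and 0.0800 in the PVN and between -0.0144 and 0.104 in the SON. Same-numbered SON and PVN arrays correlated between 0.0350 and 0.174 in SHR, where 2 of 4 matched their own number best, and between -0.00919 and -0.00105 in WKY.

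Signals near the floor limit what can be said of the 34 untested genes, and 4 SHR SON arrays limit the strain comparison in the SON.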
